A study of Mus musculus with 11 samples.

Results

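The respiratory chain genes of the nucleus were followed across 4 sorted cell groups of the mouse adrenal gland. They are the protein-coding genes whose symbols begin with Nduf or Uqcr, are Sdha, Sdhb, Sdhc or Sdhd, or begin with Cox followed by 4i, 5, 6, 7 or 8. The authors' deposited comparison tables hold 16207 protein-coding rows, and 74 of them met this rule. All 74 were among the 20893 genes with enough counts to be tested, of 49671 genes in the count table. By function they fell into 7 nuclear core subunits, 29 accessory subunits and 8 assembly factors of complex I. Core subunits encoded by the mitochondrial chromosome are not among the 7. The others were 4 subunits of complex II, 8 of complex III and 18 genes of complex IV. Ndufa4 and its relative Ndufa4l2 were counted with complex IV.

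The cells came from male mice of the Nes-GFP strain, in which green fluorescent protein (GFP) marks cells that use regulatory sequence of the intermediate filament gene Nestin. Cortex, the steroid-producing outer part of the gland, and medulla, the catecholamine-producing inner part, were separated from 6 mice in 3 pools of 2 mice, and each tissue was sorted by its GFP signal, with 180 to 300 cells lysed per tube. The groups were cortical GFP-positive cells (n = 3), cortical GFP-negative cells (n = 3), medullary GFP-positive cells (n = 3) and medullary GFP-negative cells (n = 2). Mice carried the reporter in every group and received no treatment that the labels name, and they were about 3.5 months old, except for library 3 of both cortical groups and libraries 2 and 3 of the medullary GFP-positive group, from mice of about 2.5 months. All medullary GFP-negative libraries came from the older mice, so that age and gate are partly confounded in the medulla. The mix of ages also differed between cortex and medulla in both gates, so that age and tissue are partly confounded too.

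The respiratory chain passes electrons from NADH (complex I) or succinate (complex II) by way of ubiquinone to complex III, then by cytochrome c to complex IV, which reduces oxygen. Complexes I, III and IV pump protons across the inner mitochondrial membrane. Most of their subunits are encoded in the nucleus, while a few of the catalytic ones are encoded by the mitochondrial chromosome, and several complex IV subunits exist as a widely expressed form and a form used in particular tissues. In the adrenal cortex, mitochondria also hold the first and last steps of steroid synthesis, and loss of succinate dehydrogenase genes in humans predisposes to tumours of chromaffin cells.

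Libraries held 18500690 to 29204212 counted reads, so that 3 counts corresponded to 0.104 to 0.157 CPM (counts scaled to a common library size). Chromaffin markers summed to between 5919 and 12298 CPM in the 5 medullary libraries and to at most 170 CPM in the cortical ones, that highest value being cortical GFP-positive library 1, which also held 812 CPM of erythroid markers against at most 1.86 CPM elsewhere. Steroidogenic markers were high everywhere, from 36510 to 74836 CPM in cortex and from 8906 to 42555 CPM in medulla. Macrophage markers summed to between 10219 and 11762 CPM in medullary GFP-negative cells, 1999 to 3452 CPM in cortical GFP-negative cells, 211 to 493 CPM in medullary GFP-positive cells and 44.5 to 178 CPM in cortical GFP-positive cells. Markers of several cell types were present in every group, and in such bulk samples fewer cells of a type and less RNA per cell cannot be told apart. Labels tie no library to a pool or animal, so p-values measure the spread between libraries, which may be technical. Unless pools mixed ages, the ages and the number of pools place some libraries of the same group in the same pool. Libraries counted as n may therefore share mice.

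Together the 74 genes were most abundant in the cortex and least abundant in medullary GFP-negative cells. Their summed level was 20970, 19716 and 19209 CPM in the cortical GFP-positive libraries. It was 19334, 17484 and 17236 CPM in the cortical GFP-negative libraries, and 16004, 14826 and 16548 CPM in the medullary GFP-positive ones. The medullary GFP-negative libraries held 12406 and 10955 CPM. The lowest of the 6 cortical sums lay above the highest medullary sum, and the medullary gates did not overlap, whereas the cortical gates did. These sums were 1.102 to 2.04% of all counts in a library.

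**Figure D1:**
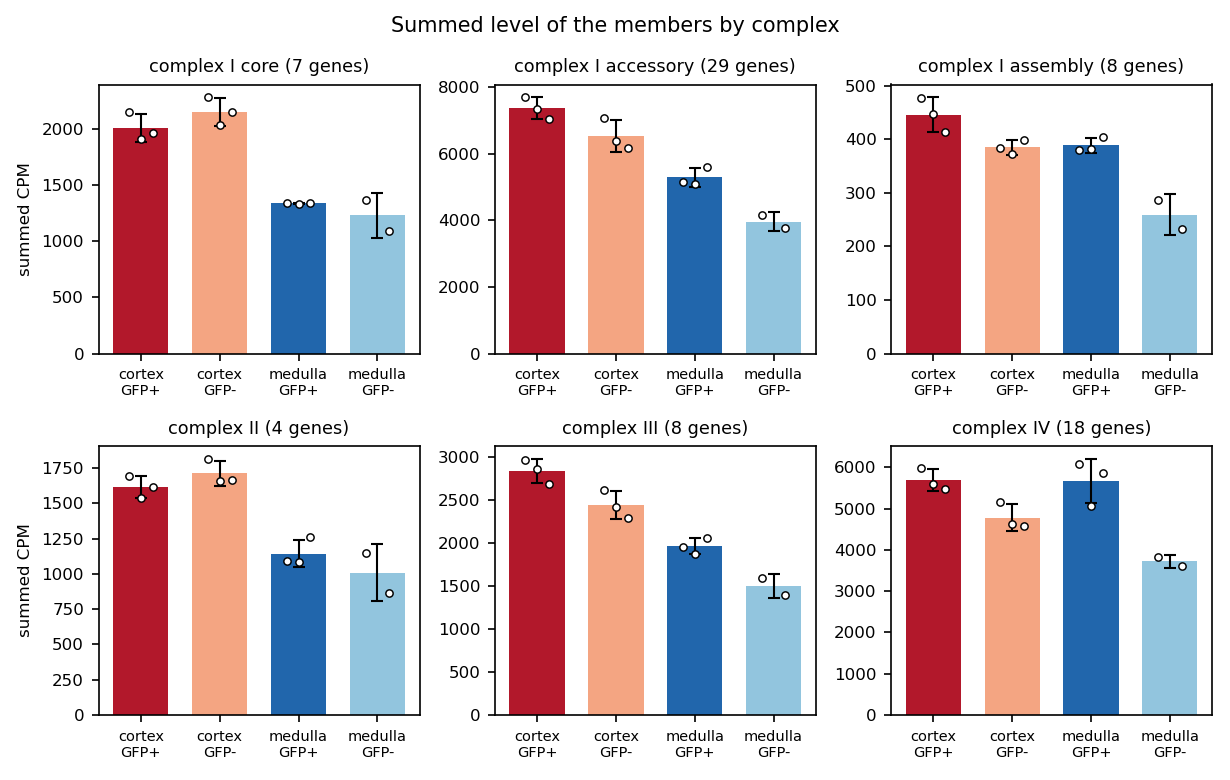
Summed CPM of the members of each complex, with the mean of a group as a bar, its SD as the error bar and each library as a point. Complex I core and complex II sums were close between the gates of a tissue, while complex IV in medullary GFP-positive cells stood at 5666 CPM, near the 5690 CPM of cortical GFP-positive cells.

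The order of the groups depended on the complex. The core subunits of complex I, which bind NADH, flavin, iron-sulfur clusters and ubiquinone, summed to 2013 ± 128 CPM (SD, n = 3) in cortical GFP-positive cells and 2158 ± 126 CPM (SD, n = 3) in cortical GFP-negative cells. In the medulla the same sum was 1340 ± 7.23 CPM (SD, n = 3) in GFP-positive and 1232 ± 200 CPM (SD, n = 2) in GFP-negative cells. Within each tissue the gates differed by about the spread between libraries or less. Accessory subunits of complex I summed to 7362 ± 327 and 6540 ± 479 CPM (SD, n = 3 each) in the cortical gates. In the medulla they summed to 5291 ± 279 CPM (SD, n = 3) in GFP-positive and 3963 ± 293 CPM (SD, n = 2) in GFP-negative cells. Complex III ran from 2838 ± 139 CPM (SD, n = 3) in cortical GFP-positive cells to 1498 ± 138 CPM (SD, n = 2) in medullary GFP-negative cells, with no overlap between neighbouring groups. Complex IV was the exception, with 5690 ± 262 CPM in cortical and 5666 ± 541 CPM in medullary GFP-positive cells (SD, n = 3 each), and these groups overlapped. Without the 6 tissue isoforms described below, the complex IV sums were 5608 ± 221 CPM in cortical and 4170 ± 217 CPM in medullary GFP-positive cells (SD, n = 3 each), and the groups no longer overlapped.

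By group mean, 48 of the 74 genes were highest in cortical GFP-positive cells, 22 in cortical GFP-negative cells and 4 in medullary GFP-positive cells, and none had its highest mean in medullary GFP-negative cells. The 4 with a medullary maximum were Ndufa4l2, Cox8b, Cox4i2 and Ndufv3, the last of these an accessory subunit of the NADH-binding module. The lowest mean was in medullary GFP-negative cells for 58 genes and in medullary GFP-positive cells for 11. Of those 11, 10 were highest in cortical GFP-negative cells, and among them were the core subunits Ndufs1 and Ndufv1, the accessory subunit Ndufa9, Sdha, Sdhd, Uqcrc1, Uqcrc2, Uqcrfs1 and Cox7a2l. Libraries of a group lay close together: the median coefficient of variation of the members was 7.37% in cortical GFP-positive, 7.82% in cortical GFP-negative, 7.62% in medullary GFP-positive and 10.7% in medullary GFP-negative cells.

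**Figure D2:**
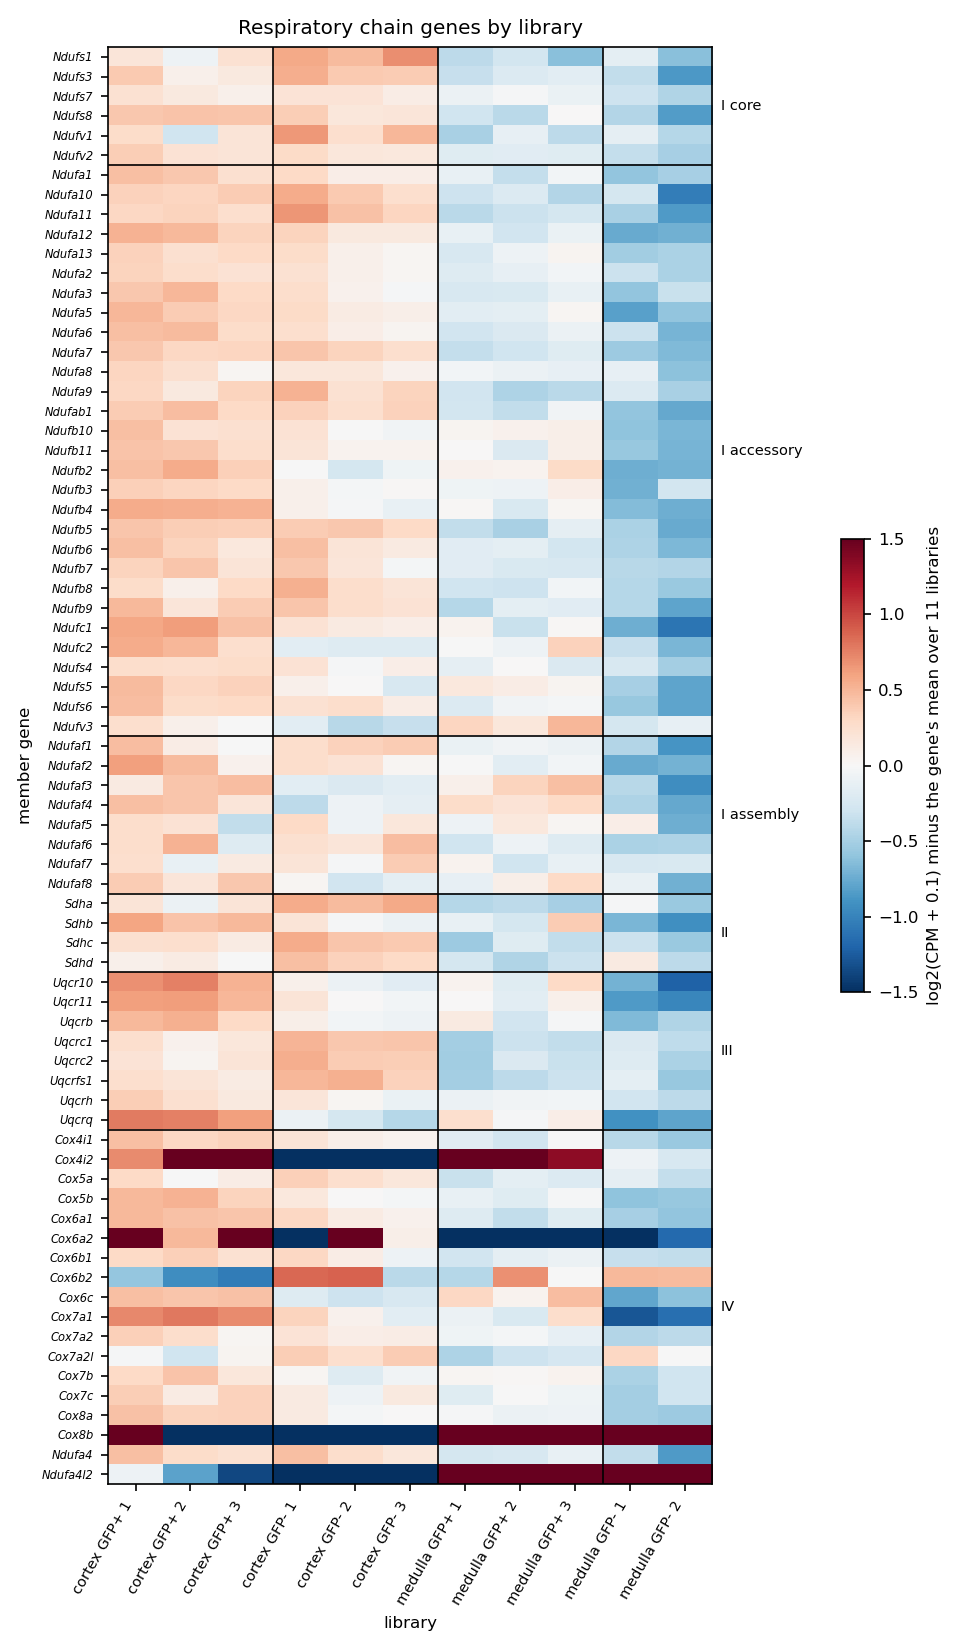
Each row is 1 of 73 of the 74 genes, grouped by complex, and each column 1 of the 11 libraries. Colour is log2(CPM + 0.1) minus the gene's mean over libraries, limited to 1.5 on either side, and most rows are highest in the cortical columns, with Ndufa4l2 and Cox8b in the reverse order.

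The first comparison asked how GFP-positive cells of the cortex and the medulla differed. Most members were higher in the cortex, by modest amounts: 41 of the 74 were called higher (adjusted p under 0.05, edgeR's quasi-likelihood test with Benjamini-Hochberg adjustment over all genes tested), against 6.04% of all genes tested, and 1 was called lower, against 9.45%. The median log2 difference of the 74 was 0.45, against -0.03 over all genes. In this comparison and that of GFP-negative cells, other protein-coding genes at or above 50 CPM had larger shares called higher than all genes, given below by gene length. Calls covered 4 of 7 core subunits of complex I, 20 of 29 accessory subunits, 0 of 8 assembly factors, 2 of 4 complex II subunits, 7 of 8 complex III subunits and 8 of 18 complex IV genes. The 1 member called lower was Ndufa4l2. The count of 42 calls was 24 without cortical GFP-positive library 1, 25 without medullary GFP-positive library 1 and 24 without medullary GFP-positive library 2.

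Ndufb5, an accessory subunit of the membrane arm of complex I, stood at 331, 321 and 317 CPM in cortical and at 192, 177 and 225 CPM in medullary GFP-positive cells. All cortical values lay above all medullary ones. It was higher in the cortex by 0.71 on the log2 scale (SE 0.12, adjusted p = 0.00409 by edgeR). Among complex IV genes with a widely expressed form, Cox6a1 stood at 808, 786 and 769 CPM against 506, 449 and 510 CPM, and the groups did not overlap. Its log2 difference was 0.69 (SE 0.10, adjusted p = 0.00227 by edgeR). Cox4i1, the regulatory subunit that binds ATP, was higher by 0.53 (SE 0.11, adjusted p = 0.00938 by edgeR). Cox6c, by contrast, stood at 720 ± 9.50 CPM and 650 ± 91.1 CPM (SD, n = 3 each), with overlapping groups and a log2 difference of 0.15 (adjusted p = 0.465 by edgeR).

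GFP-negative cells differed in the same direction and in more members. In cortex against medulla, 57 of the 74 genes were called higher, against 8.06% of all genes tested, and 3 were called lower, against 10.6%. The median log2 difference was 0.65, against -0.02 over all genes. All 7 nuclear core subunits of complex I were called higher, with 26 of 29 accessory subunits and 3 of 8 assembly factors. So were 3 of 4 complex II subunits, 7 of 8 complex III subunits and 11 of 18 complex IV genes. The 3 lower were Ndufa4l2, Cox8b and Cox4i2. The count of 60 calls was 35 without cortical GFP-negative library 1 and 29 without medullary GFP-negative library 2. This comparison shares no library with that of the GFP-positive cells, and 40 genes were called higher in both, which is 97.6% of the 41 and 70.2% of the 57. With 57 of the 74 called here, a large shared part can arise from that count alone. Both comparisons came from the same fit and may share mice, and the overlap over all genes was not computed.

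Ndufa11, an accessory subunit in the membrane arm of complex I, stood at 286, 244 and 225 CPM in cortical and 129 and 99.8 CPM in medullary GFP-negative cells. The groups did not overlap, and the log2 difference was 1.14 (SE 0.15, adjusted p = 0.00146 by edgeR). Ndufc1, Ndufs3 and Ndufa10 were higher by 1.05, 1.03 and 1.01 on the log2 scale (adjusted p = 0.00266, 0.00384 and 0.00918 by edgeR). Ndufs1, the large iron-sulfur subunit of the electron input module, stood at 297, 277 and 323 CPM against 181 and 129 CPM, and its log2 difference was 0.95 (SE 0.18, adjusted p = 0.0068 by edgeR). Uqcrc1 and Uqcrc2, the core proteins of complex III, were higher by 0.74 and 0.76 (adjusted p = 0.00332 and 0.00643 by edgeR). Uqcrh, the hinge protein that holds cytochrome c1, was the complex III subunit not called, with differences of 0.37 here (adjusted p = 0.0617) and 0.32 in GFP-positive cells (adjusted p = 0.0789 by edgeR). Macrophage markers were also lower in cortical than in medullary GFP-negative cells (1999 to 3452 against 10219 to 11762 CPM), and steroidogenic markers higher (36510 to 41109 against 8906 to 16535 CPM). Their part in these differences was not tested.

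**Figure D3:**
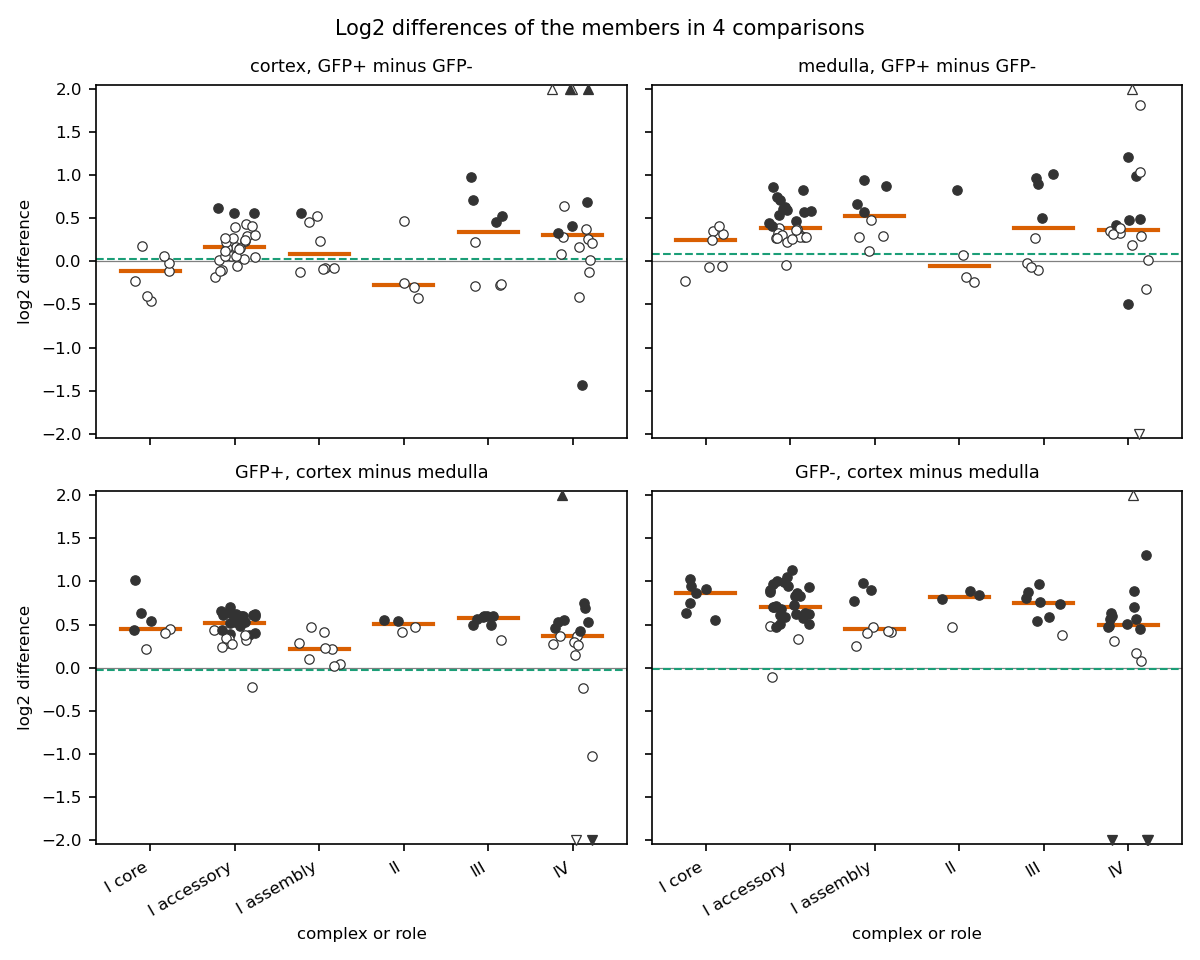
Log2 difference of every member in each of the 4 comparisons, grouped by complex and role, with called genes filled and others open. Orange lines are medians of a role and the green dashed line is the median of all genes tested, and triangles at the edge mark values beyond 2. In both tissue comparisons the points lie mostly above 0, and in the gate comparisons core subunits and complex II have lower medians than complex III and IV.

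Ndufb5, with Ndufv2, Ndufb4, Uqcr11, Uqcrc1, Uqcrfs1, Uqcrq, Cox4i1, Cox5b, Cox6a1, Cox8a and Ndufa4l2, were the 12 of 24 named calls in GFP-positive cells that remained whichever single library was left out. Among GFP-negative cells the calls that remained were 14 of 33, namely Ndufa4l2, Cox7a1, Ndufa4, Cox6a1, Cox8a, Sdhc, Ndufa11, Ndufc1, Ndufs3, Ndufa10, Ndufv2, Uqcr11, Uqcrc1 and Uqcrfs1. Every library of the groups compared ended at least 1 of the other calls when left out. Members other than the tissue isoforms, their counterparts and complex II were named after their values were seen, except in comparisons where they were among the 5 largest called rises or falls.

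The second pair of comparisons asked how GFP-positive cells differed from GFP-negative cells of the same tissue. In the cortex, a minority of members was called: 13 of the 74 were higher in GFP-positive cells, against 7.14% of all genes tested, and 1 was lower, against 7.59%. The median log2 difference of the members was 0.17, against 0.03 over all genes. In both gates, other protein-coding genes at or above 50 CPM had larger shares called higher than all genes, given below by gene length. Those called higher were 3 accessory subunits of complex I (Ndufb2, Ndufb4 and Ndufc2), the assembly factor Ndufaf4, 4 complex III subunits (Uqcrq, Uqcr10, Uqcr11 and Uqcrb) and 5 complex IV genes (Cox4i2, Cox5b, Cox6c, Cox8a and Ndufa4l2), and Cox6b2 was lower. None of the nuclear core subunits of complex I or of the complex II subunits was called, with medians of -0.12 and -0.28. The core subunit Ndufs1 was called lower under total counts alone (adjusted p = 0.0318), DESeq2 (0.0198) and limma voom (0.0417). It was also called lower in a fit on the cortical libraries alone (0.0262). Scaling by total counts alone gave 10 higher and 5 lower, DESeq2 gave 20 and 5, and a fit on the cortical libraries alone gave 21 and 4. The count of 14 calls was 8, 7, 8, 6 and 6 when GFP-positive libraries 1 and 2 and GFP-negative libraries 1, 2 and 3 were left out in turn, and Ndufa4l2, Cox4i2, Uqcrq and Cox6c kept their calls each time.

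In the medulla, 28 of the 74 genes were called higher in GFP-positive cells, against 10.2% of all genes tested, and 1 was called lower, against 11.1%. The median log2 difference was 0.36, against 0.09 over all genes. Here 14 of 29 accessory subunits, 4 of 8 assembly factors (Ndufaf1, Ndufaf2, Ndufaf3 and Ndufaf4), Sdhb, 4 of 8 complex III subunits and 5 complex IV genes (Cox5b, Cox6c, Cox7a1, Cox7b and Cox8a) were higher. None of the nuclear core subunits of complex I was called, with a median of 0.25, and the 1 member called lower was Cox7a2l. The count of 29 calls was 19 without GFP-positive library 3, 15 without GFP-negative library 2 and 11 in a fit on the medullary libraries alone. Of 17 named calls, those of Cox7a1, Cox8a, Uqcr10, Cox6c, Uqcrq, Ndufb2, Ndufaf4 and Uqcr11 remained whichever single library was left out, and each of the 5 libraries ended at least 1 of the others. In both tissues GFP-positive cells had lower sums of macrophage markers and higher sums of steroidogenic markers (65280 to 74836 against 36510 to 41109 CPM in the cortex, 23970 to 42555 against 8906 to 16535 CPM in the medulla). Schwann cell and glial markers were also higher (233 to 326 against 9.11 to 18.7 CPM in the cortex, 2262 to 5085 against 57.3 to 82.0 CPM in the medulla). Zona glomerulosa markers were lower (968 to 1427 against 4798 to 6043 CPM in the cortex, 52.1 to 145 against 1938 to 3305 CPM in the medulla). For all 4 cell types, their part in the gate differences was not tested. The gate comparisons of cortex and medulla share no library, and 11 genes were called higher in both, which is 84.6% of the 13 and 39.3% of the 28. They came from the same fit and may share mice, and their overlap over all genes was not computed.

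Uqcrq, a small subunit of complex III that contacts cytochrome b, had the largest gate difference of the widely expressed members in the cortex. It stood at 387, 381 and 347 CPM in cortical GFP-positive cells and at 212, 189 and 168 CPM in GFP-negative cells. In the medulla it stood at 270, 223 and 243 CPM and at 121 and 130 CPM. The gates did not overlap in either tissue, and the difference was 1.96-fold in the cortex (log2 0.97, SE 0.12, adjusted p = 0.000881) and 1.95-fold in the medulla (log2 0.97, SE 0.14, adjusted p = 0.00112 by edgeR). Uqcr10, another small complex III subunit, stood at 523, 548 and 466 against 343, 305 and 288 CPM in the cortex and at 339, 287 and 399 against 199 and 140 CPM in the medulla. It rose by 0.71 (SE 0.17, adjusted p = 0.0172) and by 1.01 (SE 0.19, adjusted p = 0.00424 by edgeR) on the log2 scale. The large subunits of the same complex did not follow: Uqcrc1 stood at 389 ± 25.2 against 471 ± 18.8 CPM (SD, n = 3 each) in the cortex, a log2 difference of -0.27 (adjusted p = 0.108 by edgeR). This cortical difference of Uqcrc1 passed the threshold under total counts alone (adjusted p = 0.0366) and DESeq2 (0.0211). The Rieske iron-sulfur protein gene Uqcrfs1 differed by -0.27 in the cortex and -0.06 in the medulla and was called in neither.

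In complex IV, Cox6c, a small subunit with a single membrane span, behaved alike in both tissues. It stood at 729, 710 and 723 against 466, 429 and 452 CPM in the cortex and at 661, 554 and 735 against 309 and 346 CPM in the medulla. The gates did not overlap, with log2 differences of 0.68 (SE 0.12, adjusted p = 0.00398) and 0.99 (SE 0.14, adjusted p = 0.000761 by edgeR). Cox8a, the widely expressed form of the smallest subunit, rose by 0.33 in the cortex (adjusted p = 0.0372) and by 0.47 in the medulla (adjusted p = 0.00961 by edgeR). The cortical call was lost without any single cortical library (adjusted p from 0.0615 to 0.126 by edgeR), under total counts alone and with no filter. In the medulla the call was lost in a fit on the medullary libraries alone (adjusted p = 0.125 by edgeR). Cox7a2l, which takes part in supercomplexes of III and IV, went the other way, with 190, 156 and 197 against 248, 228 and 249 CPM in the cortex (log2 -0.42, adjusted p = 0.0588 by edgeR). This difference passed the threshold under 5 alternatives, namely DESeq2, its size factors in edgeR, total counts alone, limma voom and a fit on the cortical libraries alone (adjusted p from 0.00953 to 0.0444). In the medulla it stood at 139, 154 and 161 against 237 and 191 CPM, without overlap (log2 -0.50, adjusted p = 0.0331 by edgeR), and the call was lost without GFP-positive libraries 1 or 2 or GFP-negative library 1 (adjusted p up to 0.21), under total counts alone, with no filter and in a fit on the medullary libraries alone.

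Complex II, the succinate dehydrogenase of the citric acid cycle, had subunits on both sides of 0. Sdhb, its iron-sulfur subunit, stood at 684, 611 and 638 against 520, 449 and 428 CPM in the cortical gates. Medullary values were 419, 379 and 590 against 282 and 239 CPM. Neither tissue had overlapping gates, and the log2 difference was 0.47 (SE 0.17, adjusted p = 0.0877) in the cortex and 0.83 (SE 0.19, adjusted p = 0.0117 by edgeR) in the medulla, where the call was lost without GFP-negative library 2 (adjusted p = 0.0881) and in a fit on the medullary libraries alone (adjusted p = 0.084). Sdha, the flavoprotein that oxidises succinate, stood at 526, 433 and 528 CPM in cortical GFP-positive cells and at 678, 640 and 684 CPM in GFP-negative cells. Its log2 difference was -0.43 (adjusted p = 0.0733) there and -0.18 (adjusted p = 0.487 by edgeR) in the medulla. The cortical difference of Sdha passed the threshold under total counts alone (adjusted p = 0.0291), DESeq2 (0.0173), limma voom (0.0378) and a fit on the cortical libraries alone (0.0246). That of Sdhb, a rise, passed it under limma voom (adjusted p = 0.0487) and in a fit on the cortical libraries alone (0.0142). The membrane anchors Sdhc and Sdhd had cortical gate differences of -0.26 and -0.30 and medullary ones of 0.08 and -0.24, none of them called. Between tissues, Sdhc was higher in the cortex by 0.56 in GFP-positive (adjusted p = 0.0147) and 0.89 in GFP-negative cells (adjusted p = 0.00325 by edgeR). Sdha was higher there by 0.54 and 0.80 (adjusted p = 0.0298 and 0.00965 by edgeR). In GFP-positive cells the Sdha call was lost without any single library except cortical GFP-positive library 2 (adjusted p up to 0.0927 by edgeR). That of Sdhc was lost without medullary GFP-positive library 1 (adjusted p = 0.0511 by edgeR). In GFP-negative cells the Sdha call was lost only without medullary GFP-negative library 2 when single libraries were left out (adjusted p = 0.0651 by edgeR).

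Assembly factors of complex I, which help build the complex and do not stay in it, were low, with a median over members of 30.5 CPM per kb of summed exon length, against 133 CPM per kb over all 74 genes. Ndufaf4 stood at 103, 101 and 86.0 against 57.3, 71.4 and 69.0 CPM in the cortical gates and at 91.1, 87.4 and 93.1 against 54.8 and 44.4 CPM in the medullary ones. The gates did not overlap in either tissue, with log2 differences of 0.55 (adjusted p = 0.0235) and 0.87 (adjusted p = 0.00354 by edgeR). Ndufaf3, its partner in early assembly, rose in the medulla by 0.95 (SE 0.19, adjusted p = 0.00618 by edgeR) and differed in the cortex by 0.53 (adjusted p = 0.061 by edgeR). Neither gene was called between tissues.

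The gate differences went with the length of the transcript. Across the 74 genes, Spearman's rho between summed exon length and the log2 difference was -0.43 in the cortical gate and -0.295 in the medullary gate, against 0.0622 and 0.15 in the tissue comparisons of GFP-positive and GFP-negative cells. These are descriptions across genes of the same libraries, which are not independent replicates. The members were divided into 18 of at most 800 bases, 24 of up to 1500, 20 of up to 3000 and 12 longer ones. Their median cortical gate differences, from the shortest class to the longest, were 0.29, 0.23, -0.05 and -0.02. Other protein-coding genes at or above 50 CPM had medians of 0.25, 0.05, -0.11 and -0.09 in the same classes. By class, 5, 3, 2 and 3 members were called higher, against 21.8, 16.2, 8.03 and 12.1% of the other genes. In the medullary gate the members' medians were 0.47, 0.41, 0.32 and 0.28, against 0.24, 0.19, 0.01 and 0.03 in the other genes. Called higher there were 8, 10, 6 and 4 members, against 32.2, 24.2, 14.8 and 16.5% of the other genes. The members' median was thus above that of the other genes in each class of both gates. The margin was smallest in the shortest class of the cortical gate. Shares called higher did not follow in every class. In the cortical gate 3 of the 24 members of up to 1500 bases were called, a smaller share than the 16.2% of other genes. Between tissues, members had medians of 0.49, 0.39, 0.44 and 0.54 in GFP-positive cells, against 0.35, 0.33, 0.19 and 0.04 in the other genes. Called higher were 13, 11, 9 and 8 members, against 35.6, 29, 21.7 and 12.9%. For GFP-negative cells the medians were 0.71, 0.58, 0.63 and 0.81, against 0.39, 0.43, 0.33 and 0.15. Here 14, 16, 16 and 11 members were called higher, against 36.8, 38.4, 28.6 and 19%. The mitochondrial chromosome supplied 10.6 to 16.7% of counts in cortical GFP-positive cells and 7.03 to 7.30% in cortical GFP-negative cells. In the medulla the shares were 9.61 to 15.2% and 4.08 to 5.14%. The part of length and of these shares in the gate differences was not tested.

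**Figure D4:**
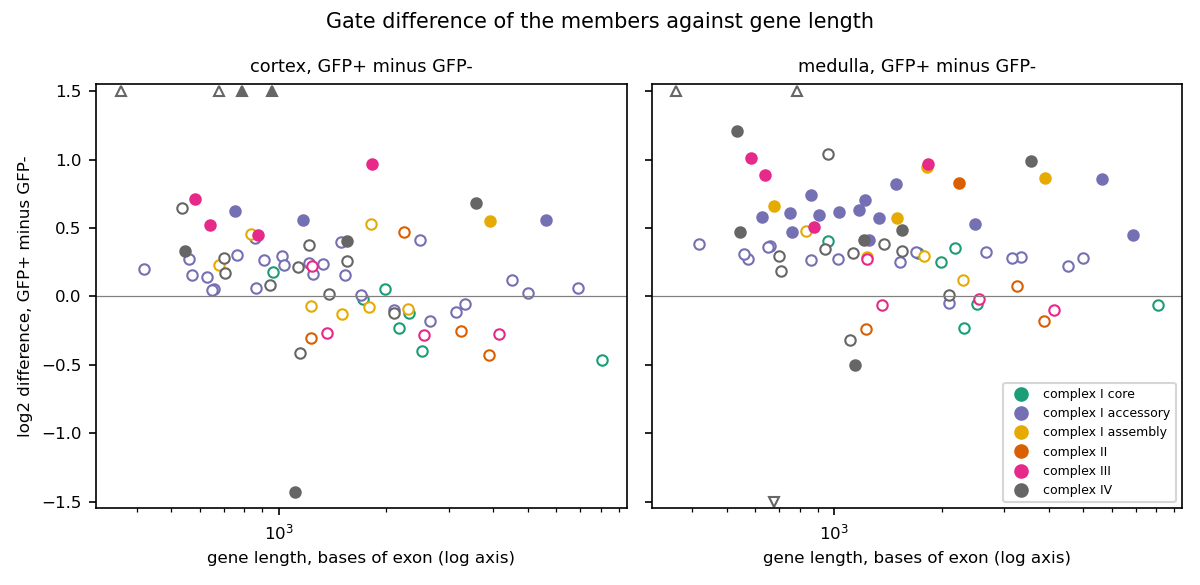
Log2 difference between GFP-positive and GFP-negative cells of each member against its summed exon length on a log axis, in the cortex and in the medulla, with called genes filled. Triangles mark values beyond 1.5, and the short genes lie higher than the long ones, with Spearman's rho of -0.43 and -0.295.

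The tissue isoforms of complex IV showed the largest differences of all members. Ndufa4l2 (ENSMUSG00000040280, mm10 chromosome 10, 127514939 to 127517152) encodes a relative of the complex IV subunit Ndufa4 and is known as a target of hypoxia-inducible factors and as a gene of pericytes. It stood at 19.2, 11.5 and 7.75 CPM in cortical GFP-positive cells and at 0.411, 0.514 and 0.315 CPM in cortical GFP-negative cells. Medullary levels were 466, 280 and 287 CPM in GFP-positive and at 185 and 150 CPM in GFP-negative cells. No 2 groups overlapped. The cortical gate difference was 30.5-fold (log2 4.93, SE 0.42, adjusted p = 0.000147 by edgeR). GFP-positive cells of the cortex were lower than those of the medulla by 26.9-fold (log2 -4.75, SE 0.36, adjusted p = 0.000174), and GFP-negative cells by 398-fold (log2 -8.64, SE 0.46, adjusted p = 6.81e-05 by edgeR). These 3 calls remained under every alternative setting and whichever single library was left out. The medullary gate difference of 2.06-fold (log2 1.04, SE 0.35) had an adjusted p of 0.0588 by edgeR. With age as an added term that difference was 1.54 (adjusted p = 0.00373) and with the replicate number as a block 1.22 (adjusted p = 0.00807), and over all alternatives the adjusted p ran from 0.00373 to 0.252.

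Ndufa4, the widely expressed counterpart, stood at 539 ± 44.3 and 532 ± 54.4 CPM in the cortical gates (SD, n = 3 each). Its medullary level was 375 ± 20.9 CPM (SD, n = 3) in GFP-positive and 287 ± 66.6 CPM (SD, n = 2) in GFP-negative cells. Per kb of exon, Ndufa4l2 made up 44.4 to 65.1% of the pair in medullary libraries, 2.16 to 4.47% in cortical GFP-positive and 0.0931 to 0.143% in cortical GFP-negative libraries. Ndufa4l2 was the only member whose gate difference was called different between the tissues by edgeR (DESeq2 called 2 members and limma voom none), where 1.61% of all genes tested were called, 0.857% higher and 0.756% lower. Its cortical gate difference exceeded the medullary one by 3.89 (SE 0.53, adjusted p = 0.0144 by edgeR). Its adjusted p was 0.101 with limma voom, and at most 0.0467 when single libraries were left out. Over the 74 genes the median of this difference was -0.25, against -0.02 over all genes, with 65 below 0.

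Pericyte and smooth muscle markers summed to 84.8, 267 and 167 CPM in cortical GFP-positive cells and to 3.29 to 9.22 CPM in cortical GFP-negative cells. In the medulla they summed to 174 to 501 CPM in GFP-positive and to 146 to 155 CPM in GFP-negative cells. Chromaffin markers stood at 170, 11.04 and 10.5 CPM in cortical GFP-positive cells and at most at 1.64 CPM in cortical GFP-negative cells. Within the cortical GFP-positive group, Ndufa4l2 was highest in library 1, which was highest in chromaffin and lowest in pericyte markers. The part of these cell types in the level of Ndufa4l2 was not tested.

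Cox8b (ENSMUSG00000025488, mm10 chromosome 7, 140898945 to 140900446) encodes the form of subunit VIII known from heart, skeletal muscle and brown fat. It stood at 1455, 755 and 1139 CPM in medullary GFP-positive and at 325 and 313 CPM in medullary GFP-negative cells. In the cortex it had 68.5 CPM in GFP-positive library 1 and no count in the other 5 libraries. Per kb of exon it was the most abundant of the 74 genes in both medullary groups, at 3101 ± 974 CPM per kb (SD, n = 3) against 923 ± 24.6 for its counterpart Cox8a in GFP-positive cells. In GFP-negative cells it stood at 885 ± 23.4 against 665 ± 12.4 CPM per kb (SD, n = 2 each). Cox8b made up 57.0 to 80.9% of the pair in the medullary libraries and 12.8% in cortical GFP-positive library 1. GFP-negative cells of the medulla held at least 8441-fold more than those of the cortex, with 16580 counts set against a group-wide floor of 3 counts. This difference was called by edgeR (adjusted p = 0.0222), but no longer (adjusted p up to 0.0671) when any cortical GFP-negative library or medullary GFP-negative library 2 was left out. The cortical gate difference rested on GFP-positive library 1, was at least 599.7-fold with 1539 counts against the same floor, and was not called (adjusted p = 0.0733 by edgeR). It was called with DESeq2 (adjusted p = 2.60e-12), with no filter on low counts (0.0232) and without GFP-positive library 2 (0.0423) or 3 (0.0406). GFP-positive cells had a log2 difference of -5.61 between cortex and medulla that was not called (adjusted p = 0.0901 by edgeR). Without cortical GFP-positive library 1 it was called (adjusted p = 0.000176 by edgeR), and the other cortical GFP-positive libraries have no count. The medullary gate difference was 3.50-fold without overlap (log2 1.81, SE 1.88, adjusted p = 0.556 by edgeR), and the adjusted p was 0.0046 with limma voom and 0.0159 in a fit on the medullary libraries alone.

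**Figure D5:**
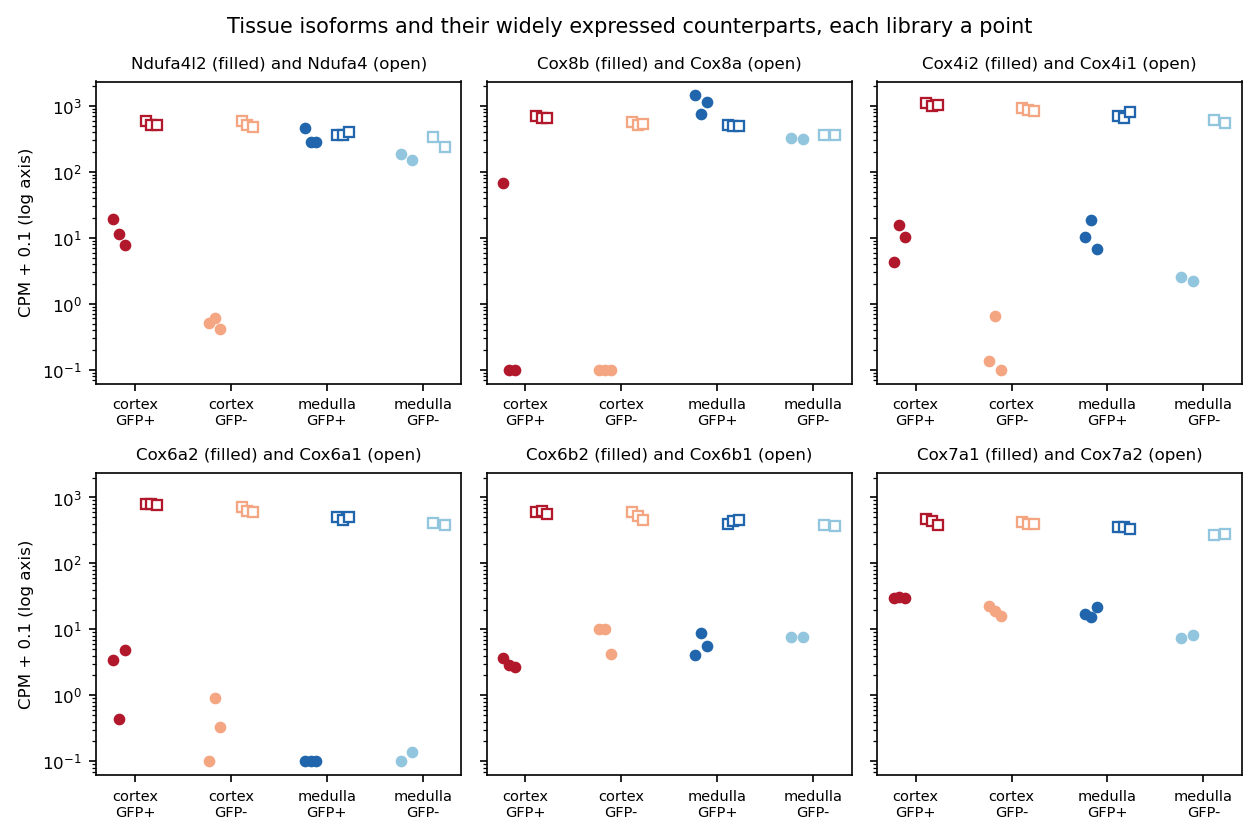
Level of each tissue isoform (filled) and its widely expressed counterpart (open) in every library, as CPM + 0.1 on a log axis. Ndufa4l2 and Cox8b are highest in the medullary groups, Cox7a1 in cortical GFP-positive cells, and the CPM shown are not corrected for length.

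Markers of other tissues known for Cox8b were read beside it. The 9 adipocyte markers summed to 49.9 to 203 CPM per library, of which Fabp4, which endothelium and macrophages also express, made 11.5 to 183 CPM and Plin1, a lipid droplet protein, 3.41 to 38.8 CPM. Ucp1, the uncoupling protein that defines brown fat, had at most 0.22 CPM in any library and Adipoq at most 1.25 CPM. Cidea, another gene of brown fat, stood at 32.3, 8.28 and 10.2 CPM in medullary GFP-positive and at 3.40 and 8.002 CPM in medullary GFP-negative cells, and at most at 1.40 CPM in the cortex. Striated and cardiac muscle markers summed to 0.859 to 10.6 CPM in all 11 libraries, and Ckm was at most 0.22 CPM. Chromaffin markers and Cox8b were high in the same 5 medullary libraries, and among cortical libraries both were highest in GFP-positive library 1, the library with erythroid markers. Within the medulla their order differed: chromaffin markers summed to 12298, 9453 and 6890 CPM in GFP-positive libraries 1, 2 and 3 and to 9438 and 5919 CPM in the GFP-negative ones, so that GFP-negative library 1 held more of them than GFP-positive library 3 but less Cox8b. The part of these cell types in the level of Cox8b was not tested.

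The sequences upstream of Cox8b and of its counterpart Cox8a are shown because the genes had opposite patterns between the tissues. Both windows are the 250 bases before the annotated start in RefSeq on GRCm38.p6, on the minus strand, printed 5′ to 3′ as transcribed, at chr7:140900447-140900696 for Cox8b and chr19:7217617-7217866 for Cox8a. Capitals mark matches to either of the short hypoxia response forms ACGTG and GCGTG on either strand.
Cox8b: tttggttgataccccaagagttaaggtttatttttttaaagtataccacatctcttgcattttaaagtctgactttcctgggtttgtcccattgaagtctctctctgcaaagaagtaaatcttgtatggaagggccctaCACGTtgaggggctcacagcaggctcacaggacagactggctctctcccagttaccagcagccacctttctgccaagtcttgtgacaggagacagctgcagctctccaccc
Cox8a: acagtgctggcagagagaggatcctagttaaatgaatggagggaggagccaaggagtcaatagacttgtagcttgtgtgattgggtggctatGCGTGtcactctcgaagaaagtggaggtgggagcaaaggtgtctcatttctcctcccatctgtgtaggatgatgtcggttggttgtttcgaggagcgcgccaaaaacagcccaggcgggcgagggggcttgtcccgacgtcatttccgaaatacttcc
The Cox8b window has 47.2% GC and 1 CpG, and the Cox8a window 52.8% GC and 11 CpG. The match in the Cox8b window reads CACGT, the reverse complement of ACGTG, and that in the Cox8a window GCGTG.

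The RefSeq table held 62 promoter windows of 60 of the 74 genes, and these were compared with all 32851 windows of the same length in that table. Median GC was 57.4% against 52.4% and the median number of CpG 14 against 6. GCATGCGC, the core of the motif of NRF1, a factor known for respiratory chain genes, stood in 9.68% of member windows against 2.26% of all windows. CCGGAA, the core bound by ETS factors such as GABP, stood in 27.4% against 12%. ACGTG stood in 16.1% against 16.6%, GCGTG in 45.2% against 28.2% and TATAAA in 8.06% against 12.4%. All motifs were searched on both strands, a match is no more than the presence of these letters, and GC content differed between the sets.

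Cox4i2 (ENSMUSG00000009876), the form of subunit IV known from lung and smooth muscle, had low levels. It stood at 4.23, 15.5 and 10.2 CPM in cortical GFP-positive cells and at 0.0373, 0.551 and 0 CPM in GFP-negative cells. In the medulla it stood at 10.1, 18.6 and 6.63 CPM and at 2.41 and 2.15 CPM. Neither tissue's gates overlapped, and the cortical difference was 49.1-fold (log2 5.62, SE 1.04, adjusted p = 0.00567 by edgeR) and remained called under every alternative. In the medulla the difference was 2.37 (SE 1.00, adjusted p = 0.123 by edgeR). GFP-negative cells of the cortex were lower than those of the medulla by 3.49 on the log2 scale (adjusted p = 0.0408 by edgeR), a call lost without cortical GFP-negative libraries 1 or 3 or either medullary GFP-negative library (adjusted p up to 0.117). Pericyte and smooth muscle markers had the same order as Cox4i2 over the cortical GFP-positive libraries, and their part was not tested.

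Cox7a1, the heart and muscle form of subunit VIIa, stood at 29.6, 31.0 and 29.4 against 22.6, 18.8 and 16.0 CPM in the cortical gates and at 16.9, 15.2 and 21.6 against 7.31 and 8.12 CPM in the medullary ones. Unlike Ndufa4l2 and Cox8b it was higher in the cortex in both gates, by 0.74 in GFP-positive (adjusted p = 0.0282) and 1.31 in GFP-negative cells (SE 0.23, adjusted p = 0.00459 by edgeR). The former call was lost without any cortical GFP-positive library or medullary GFP-positive library 1 or 2 (adjusted p up to 0.0951). Its medullary gate difference was 2.32-fold (log2 1.21, SE 0.23, adjusted p = 0.00409 by edgeR) and its cortical one 1.57-fold (adjusted p = 0.0501 by edgeR). Per kb it made up 4.55 to 12.1% of the pair with Cox7a2.

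The last isoforms were rare. Cox6a2, the heart and muscle form of subunit VIa, stood at 3.34, 0.344 and 4.82 CPM in cortical GFP-positive cells, with no count in medullary GFP-positive cells. The difference was at least 62.7-fold, from 190 counts set against the same floor (adjusted p = 0.0287 by edgeR), and the call was lost without cortical GFP-positive libraries 1 or 3 or any medullary GFP-positive library (adjusted p up to 0.0744). Between GFP-negative cells the counts were 28 and 1, a ratio of 18.3 with an exact 95% counting interval of 3.03 to 750 (counting error only). Cox6b2, known from testis, stood at 3.61, 2.79 and 2.57 against 9.97, 10.1 and 4.10 CPM in the cortical gates and was called lower in GFP-positive cells (log2 -1.43, SE 0.42, adjusted p = 0.0463 by edgeR), a call kept only without GFP-negative library 3 when single libraries were left out (adjusted p up to 0.131). In the medulla it stood at 4.03, 8.80 and 5.43 against 7.63 and 7.60 CPM, with overlap.

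Neighbouring parts of the same pathway were read from lists of genes named for their function, with the share of all genes tested that was called beside them. That share was 6.04% higher and 9.45% lower for cortex against medulla in GFP-positive cells and 8.06% and 10.6% in GFP-negative cells. It was 7.14% and 7.59% in the cortical gate and 10.2% and 11.1% in the medullary gate. Of 17 ATP synthase genes, 10 were higher in the cortex in GFP-positive and 12 in GFP-negative cells, with medians of 0.49 and 0.63, and of 15 citric acid cycle genes 9 and 12 (medians 0.56 and 0.82). In the gates, 0 ATP synthase genes rose and 1 fell in the cortex and 3 rose in the medulla, and of the citric acid cycle genes 0 were called in the cortex and 1 fell in the medulla. The 13 protein-coding genes of the mitochondrial chromosome had more calls between gates than between tissues. Between gates 6 rose in GFP-positive cells of the cortex and 13 in those of the medulla (medians 1.178 and 1.54). Between tissues 0 were called in GFP-positive and 1 in GFP-negative cells, with medians of 0.15 and 0.60 that were also higher in the cortex. For example, mt-Cytb, the cytochrome b of complex III, rose by 1.19 in the cortical gate (adjusted p = 0.00351) and by 1.51 in the medullary gate (adjusted p = 0.00147 by edgeR). Of 77 mitochondrial ribosomal proteins 36 and 44 were higher in the cortex in GFP-positive and GFP-negative cells (medians 0.53 and 0.67). Of 82 cytosolic ribosomal proteins 46 and 1 were higher there (medians 0.48 and 0.06). In GFP-positive cells both medians were no lower than that of the members (0.45). Between gates, 4 mitochondrial ones rose and 2 fell in the cortex, and 11 rose in the medulla. Of the cytosolic ones 8 rose in the cortex, and 1 rose and 10 fell in the medulla. Of 12 regulators of mitochondrial biogenesis, none was called in a gate, and Tfb2m, a mitochondrial transcription factor, was called higher in cortical GFP-positive cells than in medullary ones (log2 0.64, adjusted p = 0.0432 by edgeR). Of 14 hypoxia response genes, Epas1 and Vegfa rose in the cortical gate by 1.00 and 1.32 (adjusted p = 0.0382 and 0.0496 by edgeR), and 3 rose and 1 fell in the medullary gate, where 1 of 14 is below the share of all genes that fell.

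Exons of 21 of the 74 genes overlap exons of another gene, in 20 of them on the opposite strand, and the library preparation marks no strand. For Ndufa4l2 the overlap with Shmt2 is 30 of 960 bases and for Cox6c that with Vps13b 250 of 3567 bases, while for Ndufb6 it is 440 of 659 bases, shared with Toporsos. Reads of Uqcrh and Ndufab1 may be split with the processed copies Uqcrh-ps1, Uqcrh-ps2 and Ndufab1-ps, which had 11.98 to 40.4 CPM. In the authors' deposited table for the cortical gate, the members with an adjusted p under 0.05 were Cox4i2 (log2 4.96, adjusted p = 1.04e-05) and Ndufa4l2 (log2 4.74, adjusted p = 2.76e-18). In the authors' deposited table for GFP-positive cells of cortex and medulla they were Cox6a2 (log2 5.14, adjusted p = 0.00839) and Ndufa4l2 (log2 -4.72, adjusted p = 2.99e-26). In the authors' deposited table for the medullary gate there were none.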

How the data were processed

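RNA of 11 libraries of sorted cells was read from a table of counts per gene, which the authors deposited as whole numbers without normalization. Reads were made from poly(A)-primed cDNA with template switching and 17 PCR cycles, per the labels' protocols, without molecular identifiers or strand marks, so counting intervals and floors cover counting error only. Build mm10, featureCounts 1.6.0, GSNAP, bcl2fastq 2.19.1, DESeq2 1.18.1 and DESeq appear, without roles, in the submitters' processing notes. The authors also deposited 3 comparison tables with log2 fold changes, p-values and adjusted p-values, a test statistic and weight (scores), normalized signal per library, GC content in percent and gene length, per the file headers. From these came biotypes, symbols and summed exon lengths, and the values named as the authors'.

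The fit used edgeR 4.0.16 under R 4.3.3 (filterByExpr, TMM scaling, quasi-likelihood test, 1 coefficient per group, 7 residual degrees of freedom), with Benjamini-Hochberg adjustment over 20893 genes at 0.05. 92 spike-in rows with 10 counts were left out. CPM use TMM-scaled totals, and an SE is the absolute log2 difference divided by the root of F. Libraries were grouped by title, and libraries of a group differed beyond sampling noise (chi-square over degrees of freedom between 27.5 and 98.7). The fits were checked on simulated data. Alternatives were other scalings, DESeq2 1.42.0, limma 3.58.1 voom, no filter, an age term, a replicate block, fits on the compared groups alone and leaving out each library. Named were tissue isoforms, their counterparts, complex II and, per comparison, the 5 largest called rises and 5 largest falls of members with a mean of at least 1 CPM. 1 member, counted with the others, is not reported here by name or value. Members and lists were chosen with earlier results of these data known. Marker lists covered 11 cell types, of which endothelium summed to 55.2 to 861 CPM, fibroblasts to 3.70 to 301 CPM, glia to 9.11 to 5085 CPM and zona glomerulosa to 52.1 to 6043 CPM per library.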

Additional observations from a re-analysis of the deposited data

Results flagged for a closer look

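The gate difference of Ndufa4l2 was not the same in the tissues: its log2 value in the cortex exceeded that in the medulla by 3.89 (adjusted p = 0.0144, interaction term of edgeR's quasi-likelihood fit with Benjamini-Hochberg adjustment). In the cortex every GFP-positive library (7.75 to 19.2 CPM) lay above every GFP-negative one (0.315 to 0.514 CPM), and in the medulla the same held at higher levels (280 to 466 against 150 to 185 CPM).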

How the results depend on the processing

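The count of members called in the cortical gate was 14, and it was 25 with DESeq2, 23 with limma voom, 25 with the cortical libraries alone and 6 to 12 when single libraries were left out. For the medullary gate it was 29, with 11 from the medullary libraries alone and 15 to 26 when single libraries were left out. For cortex against medulla it was 42 in GFP-positive cells, with 24 to 37 when single libraries were left out, and 60 in GFP-negative cells, with 29 to 53. For the interaction it was 1, with 2 under DESeq2 and 0 under limma voom. The cause of these shifts was not tested. Deviations of same-numbered libraries were at most weakly correlated (-0.0085 to 0.0711). In the cortical gates and the GFP-positive tissue comparison each library correlated best with its own number. A weak pairing by replicate number is therefore possible there, and the main fit did not use it. However, the GFP-positive libraries numbered 2 came from mice of about 3.5 months in cortex and 2.5 months in medulla. They share mice only if pools mixed ages. With the replicate number as a block, the counts were 11, 23, 35, 57 and 1. With age as an added term they were 13, 24, 30, 53 and 1, in the same order of comparisons. Scaling by total counts alone moved the median interaction over all genes from -0.02 to -0.19. Of 2288 values of named genes under alternatives, 1949 kept their direction and side of the threshold, 237 lost the call, 72 gained one and 30 changed sign. Under total counts alone, signs changed in the cortical gate for Ndufa4 (-0.081), Cox7a2 (-0.022) and Ndufv2 (-0.044), and in the medullary gate for Ndufs1 (0.012), Ndufv1 (0.016), Uqcrc2 (0.054) and Uqcrfs1 (0.012). limma voom gave Cox6b2 -0.018 in GFP-negative cells. Over the fits that leave out a library, the log2 difference crossed 0 in the cortical gate for Ndufa4 (-0.059 to 0.099), Cox7a2 (-0.00038 to 0.17), Ndufs7 (-0.072 to 0.015) and Ndufv2 (-0.0100 to 0.095). In the medullary gate it did so for Sdha (-0.42 to 0.12), Sdhc (-0.040 to 0.20), Sdhd (-0.49 to 0.051), Ndufs1 (-0.29 to 0.20), Ndufv1 (-0.20 to 0.11), Uqcrc2 (-0.16 to 0.13) and Uqcrfs1 (-0.26 to 0.17). Between tissues it did so for Cox4i2 in GFP-positive (-0.68 to 0.25) and Cox6b2 in GFP-negative cells (-0.15 to 0.40), and in the interaction for Cox8b (-1.74 without cortical GFP-positive library 1, up to 10.96). None of these differences was called with all libraries in the fit. Cox8b had no count in 5 of 6 cortical libraries, and Cox6a2 had 1 count in all medullary libraries together. Where a whole group had no count, only a lower bound of the fold was given.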
